A study of Homo sapiens with 12 samples.

Results

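SBC3 cells given teriflunomide and lurbinectedin together were compared with control cells. The treatment label defines both groups, Teriflunomide/Lurbinectedin and Control, each of 3 samples, which makes 6 of the 12 samples in the series. The other 6 samples received 1 of the drugs alone and were used for the shared estimate of spread. SBC3 is an established line of human small cell lung cancer, and per the series' design text all samples were spheroids. Total RNA (RNeasy Plus Mini, Qiagen) went into KAPA mRNA HyperPrep libraries, a chemistry that captures polyadenylated transcripts. The labels give no genotype change, dose, exposure time or vehicle for any group. They do not say whether the replicates came from separate cultures, so the p-values measure only the spread between these samples, which may be technical. The work is on 1 cell line.

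Teriflunomide, the active form of leflunomide, inhibits DHODH, the mitochondrial enzyme of pyrimidine synthesis that passes electrons to the respiratory chain. Lurbinectedin binds guanines in the minor groove of DNA. Its adducts stall RNA polymerase II on the gene body, and the stalled enzyme is degraded. DNA damage stabilises p53, which switches on genes of arrest, repair, death and its own inhibition. The title of the series names mitochondrial fragmentation through DRP1, the fission GTPase encoded by DNM1L, as the process of interest.

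The label small cell lung cancer was checked against defining markers. INSM1, UCHL1, GRP and CALCA, genes of the classic neuroendocrine form, were at 0 in all 6 samples, and NCAM1 had 1 count over the 6. The epithelial markers EPCAM and CDH1 had 3 and 2 counts over the 6 samples, whereas the epithelial keratin gene KRT8 had 22644 counts over the control samples and 33530 with both drugs. The keratin genes KRT18 and KRT19 were nearly absent, with 14 and 2 counts over the control samples and 15 and 7 with both drugs. Of the subtype genes, NEUROD1 was at 4.29, 4.11 and 3.67 CPM in the control samples and 2.97, 2.53 and 2.04 CPM with both drugs, and POU2F3 had 14 counts in the control samples against 1. YAP1, the Hippo effector that marks a non-neuroendocrine form, had 22902 counts over the control samples and 8010 with both drugs. NTS, which encodes the peptide neurotensin, had the highest level of all nuclear genes in both groups. Other neuroendocrine markers were present: SYP, the synaptic vesicle protein synaptophysin, had 1569 counts over the control samples and 2811 with both drugs, and CHGB, chromogranin B, had 281 and 583. Of 13 immune and red cell markers, CD3E, FCGR3A and MS4A1 were at 0. The summed level of the list was 0.179 to 0.436 CPM in the control samples and 2.74 to 3.20 CPM with both drugs. That sum includes the hemoglobin genes HBB and HBA1, of which HBA1 had 9 counts over the control samples and 57 with both drugs. Of 12 fibroblast and endothelial markers, DCN and LUM were at 0, and the sum, nearly all of it from 2 collagen genes, was 536 to 565 CPM and then 222 to 254 CPM.

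Total counts were between 26956646 and 30685641 in the 6 samples. Pearson correlations of log2 levels were 0.995 between control samples, 0.986 to 0.990 between samples given both drugs and 0.875 to 0.904 across the groups. Both drugs replicate 2 stood somewhat apart, with 24.9% of its counts on the mitochondrial genome against 14.6% and 13.1% in the other 2. Both drugs replicate 3 had 26140 genes with a count against 24316 and 24133, and 1791 genes had a count in that sample alone, with a median of 1 count. Levels are given as CPM, the count scaled to the size of the library after TMM normalisation, or as TPM, which also divides by gene length and is used to rank genes by level. Both are shares of each sample's RNA: in these bulk samples fewer cells of a type and less RNA per cell cannot be told apart, and a gene that held its output while others lost theirs is measured as higher.

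More than 2 in 3 genes changed. Of 16683 genes tested, 11418 passed edgeR's quasi-likelihood test (68.4%), called here at an adjusted p under 0.05 after the Benjamini-Hochberg method. Of these, 5687 were higher with both drugs (34.1% of genes tested) and 5731 were lower (34.4%), with 6646 called genes changed at least 2-fold. Falls reached further than rises: 782 genes fell at least 8-fold and 425 rose at least 8-fold. In 12880 genes (77.2%) every sample given both drugs lay on the same side of every control sample. A list below is therefore read against these shares, since a list with 1 in 3 members higher and 1 in 3 lower is at the background. Genes near 0 in 1 group could pass the filter on low counts only through the samples where they were high. List counts in either direction can include such genes. Counting only changes past 1.5-fold, with the TREAT test, 7267 genes were called, and with the mitochondrial genes left out of all steps 11432 were called at any size. Scaling by library size alone moved the median change over all tested genes, on the log2 scale, from 0.04 to -0.13 and gave 4290 higher and 6164 lower calls, so small rises depend on the scaling.

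**Figure D1:**
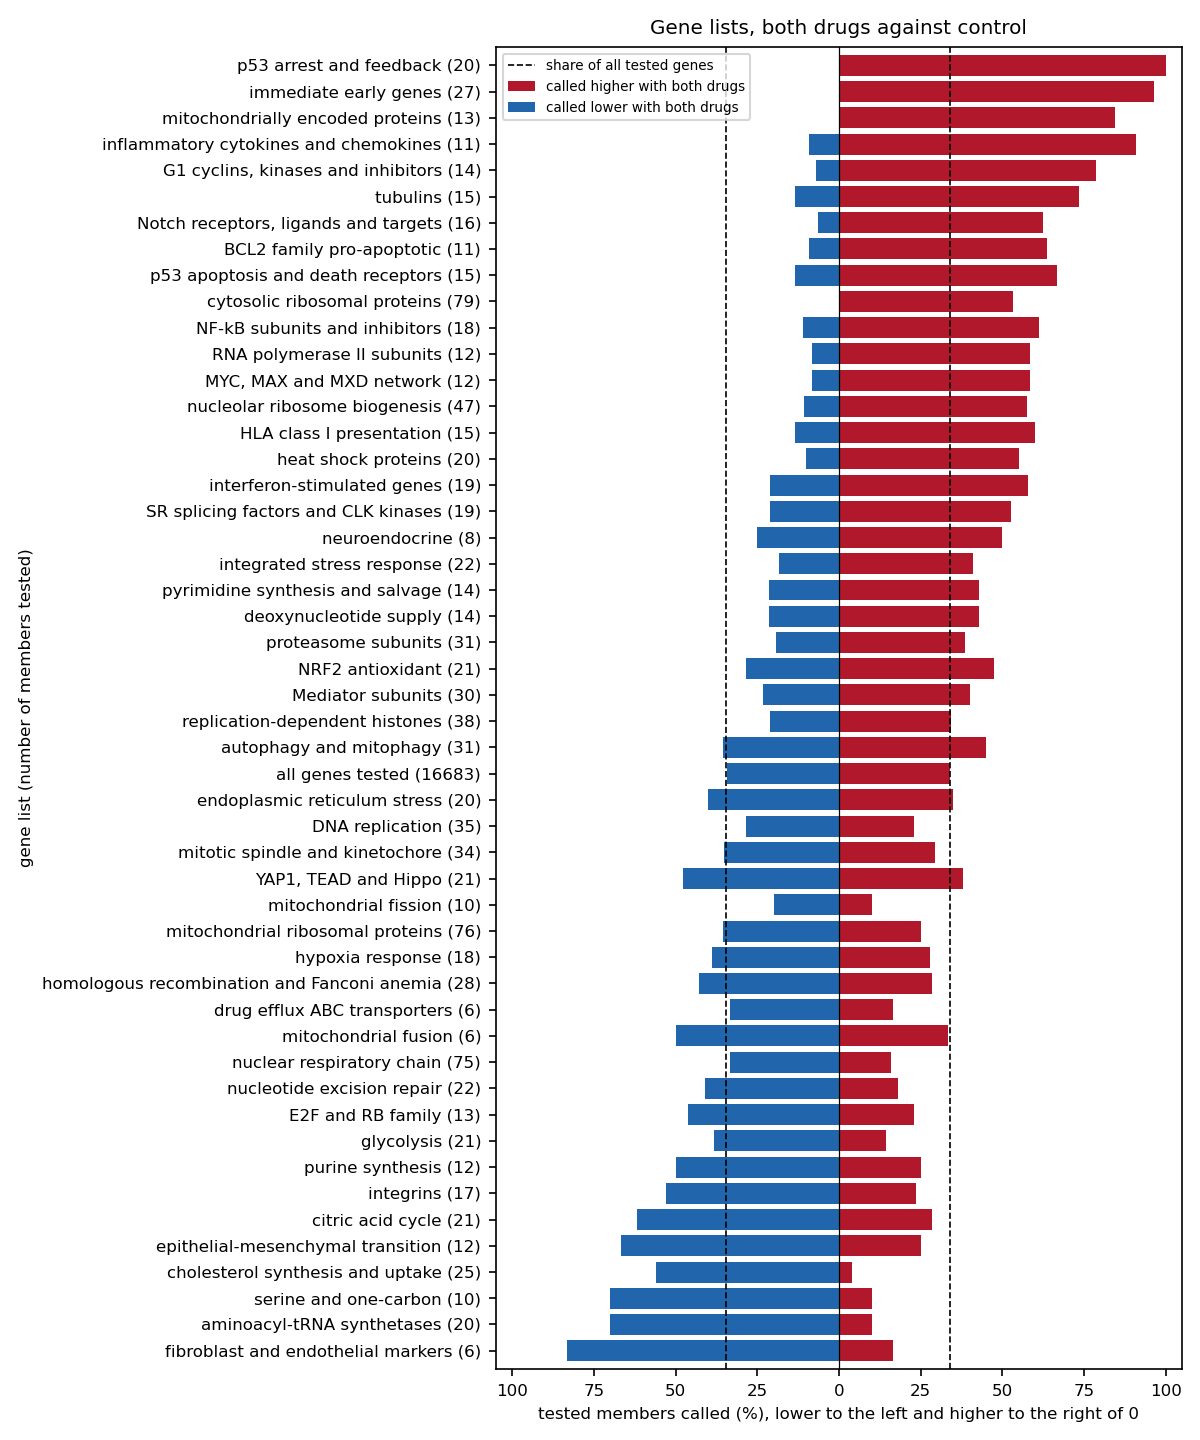
Bars show, for each gene list, the percent of its tested members called higher (right, red) or lower (left, blue) with both drugs against control. Dashed lines mark the shares among all 16683 genes, 34.1% higher and 34.4% lower. The p53 arrest list at the top has all 20 tested members higher, and 14 of 20 aminoacyl-tRNA synthetases near the bottom were lower.

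Among genes of at least 5 CPM with both drugs, the largest rise was that of KLKP1, a transcribed kallikrein pseudogene (chromosome 19, 50882096 to 50896398; GRCh38), with 4, 0 and 1 counts in the control samples and 1102, 2254 and 677 with both drugs. Both drugs replicate 2 was the highest, but all 3 were far above control (log2 fold change 9.81). GRM2, a metabotropic glutamate receptor gene (chromosome 3, 51707068 to 51718613), had 1, 0 and 2 counts in the control samples and 150, 159 and 213 with both drugs. That is 3 counts against 522, a ratio of 196 after scaling, with a 95% interval of 66.8 to 954 that covers counting error only. KLKP1 and GRM2 could pass the filter on low counts only through treated samples and were picked by the size of their rise. Their place at the top is therefore a description and no separate evidence. SERPINB5 (chromosome 18, 63476958 to 63505085), which encodes maspin, rose from 0.391 to 23.3 CPM (log2 fold change 5.89, adjusted p = 8.64e-11). TENT5C (chromosome 1, 117606048 to 117628389), a non-canonical poly(A) polymerase gene, rose from 0.843 to 48.5 CPM (log2 fold change 5.83, adjusted p = 1.38e-10).

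Among genes of at least 5 CPM in the control samples, the 6 largest falls were in genes with a genomic span of 221 kb or more. FTO (chromosome 16, 53701692 to 54158512; a span of 457 kb), an RNA demethylase gene, had 58.1, 58.97 and 58.2 CPM in the control samples and 0.543, 0.632 and 0.383 CPM with both drugs (log2 fold change -6.83, SE 0.191, adjusted p = 1.09e-11). TBC1D5 (chromosome 3, 17157162 to 18444817; 1288 kb), a regulator of Rab GTPases, fell from 102 ± 1.63 to 1.01 ± 0.0749 CPM (SD, n = 3; log2 fold change -6.66, adjusted p = 9.76e-13). TLN2 (chromosome 15, 62390526 to 62844631; 454 kb), which encodes the integrin adaptor talin 2, fell from 46.3 to 0.355 CPM. SH3RF3 (chromosome 2, 109129205 to 109504634; 375 kb) had 420, 450 and 505 counts in the control samples and 6, 2 and 0 with both drugs. CAMK1D (chromosome 10, 12349547 to 12835545; 486 kb), a calcium-dependent kinase gene, had 299, 291 and 342 counts in the control samples and 2, 2 and 3 with both drugs. LEPR (chromosome 1, 65420652 to 65641559; 221 kb), the leptin receptor gene, had 175, 185 and 183 counts in the control samples and 2, 2 and 0 with both drugs, and it overlaps LEPROT. In each of these 6 genes every sample given both drugs was far below every control sample.

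The p53 arrest and feedback list rose as a whole. All 20 tested members of 21 were higher, 19 of them at least 2-fold, with a median log2 fold change of 2.84 against 0.04 over all genes. PLK2, among the 20, had 14 counts over the control samples and 160 with both drugs. It could pass the filter on low counts only through treated samples, so its rise is no separate evidence. CDKN1A, the cyclin-dependent kinase inhibitor p21, was at 23.2, 21.1 and 24.2 CPM in the control samples and 550.3, 579 and 592 CPM with both drugs (log2 fold change 4.65, SE 0.216, adjusted p = 5.86e-10). MDM2, the ubiquitin ligase that removes p53, was at 259, 280.4 and 247 CPM in the control samples and 1713, 1794 and 1213 CPM with both drugs (log2 fold change 2.59, SE 0.143, adjusted p = 2.65e-09). The 3 treated samples of CDKN1A lay close together, MDM2 was lowest in replicate 3, and all were far above control. GADD45A, a stress sensor that binds PCNA and p21, rose from 8.42 ± 1.09 to 265 ± 76.5 CPM (SD, n = 3; log2 fold change 4.98, adjusted p = 3.27e-10). BTG2, an antiproliferative gene, was at 31.7, 29.2 and 32.4 CPM in the control samples and 601, 753 and 589.8 CPM with both drugs (log2 fold change 4.38, SE 0.1196, adjusted p = 1.09e-11). SESN2, a sestrin that restrains mTORC1, rose from 62.8 ± 1.54 to 536 ± 32.95 CPM (SD, n = 3; log2 fold change 3.09, adjusted p = 6.21e-08). GDF15, a secreted stress cytokine, rose from 3.12 to 62.97 CPM, and FDXR, the mitochondrial ferredoxin reductase, rose from 12.96 to 274 CPM. The smallest rise in the list was that of the cyclin gene CCNG1, from 240.1 to 417 CPM (log2 fold change 0.80, adjusted p = 0.00122).

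Most death genes downstream of p53 rose as well. Of 15 tested members, 10 were higher and 2 lower, and the list's median log2 fold change was 1.52. TNFRSF10A, among the 10, had 14 counts over the control samples and 32 with both drugs. It could pass the filter only through treated samples, so its rise is no separate evidence. PMAIP1, which encodes the BH3-only protein NOXA, was at 2.48, 2.61 and 2.42 CPM in the control samples and 76.97, 99.97 and 38.3 CPM with both drugs (log2 fold change 4.84, SE 0.296, adjusted p = 6.73e-09). Replicate 3 was the lowest of the 3 and still far above control. BBC3, which encodes PUMA, rose from 2.81 to 35.8 CPM (log2 fold change 3.67, adjusted p = 8.55e-09). FAS, the death receptor, rose from 8.71 to 75.5 CPM (log2 fold change 3.11, adjusted p = 2.20e-10). It overlaps ACTA2, which moved by a log2 fold change of 0.80. TNFRSF10B, the TRAIL receptor DR5, rose from 242 ± 5.92 to 1033 ± 23.1 CPM (SD, n = 3; log2 fold change 2.09, adjusted p = 1.72e-09). CASP8 and FADD, which relay these receptors' signal, had adjusted p-values above 0.05, with log2 fold changes of -0.09 and -0.22. Over the BCL2 family, 7 of 11 pro-apoptotic members rose, BAX from 59.9 to 171 CPM among them, and BID fell from 15.9 to 11.5 CPM (log2 fold change -0.47, adjusted p = 0.00319). BIK and HRK, among the 7, had 25 and 35 counts over the control samples and 176 and 104 with both drugs. They could pass the filter only with the help of treated samples, so their rise is no separate evidence. Of the 4 anti-apoptotic members tested, MCL1 rose and BCL2 fell. MCL1 was at 272, 279 and 268 CPM in the control samples and 952, 1084 and 759.6 CPM with both drugs (log2 fold change 1.77, SE 0.116, adjusted p = 1.28e-08). BCL2 was at 26.8, 28.6 and 27.1 CPM in the control samples and 17.7, 19.8 and 12.2 CPM with both drugs (log2 fold change -0.74, SE 0.151, adjusted p = 6.65e-04). BCL2L1 and BCL2L2 had log2 fold changes of -0.25 and -0.10 and were not called.

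**Figure D2:**
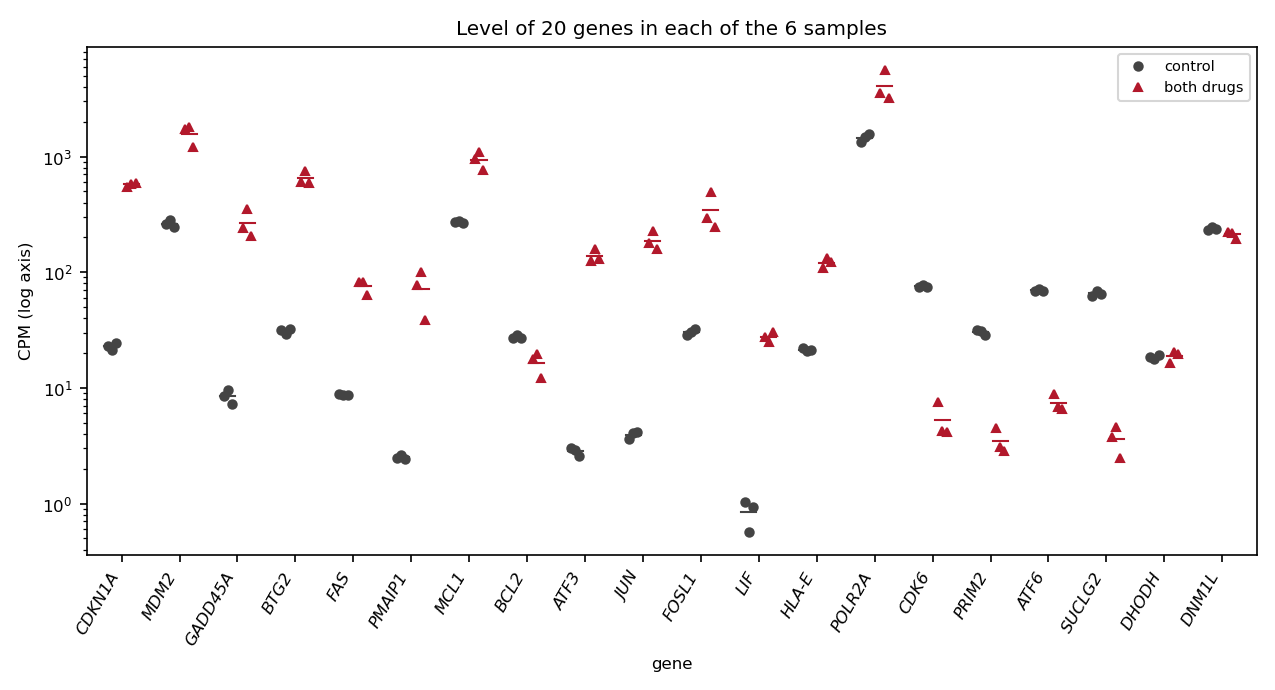
Points are the CPM of 20 genes in each of the 3 control samples (grey circles) and the 3 samples given both drugs (red triangles) on a log axis, and lines are group means. CDKN1A lies at 21.1 to 24.2 CPM and at 550 to 592 CPM, and the groups overlap only for DHODH.

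Immediate early genes, which cells transcribe within minutes of a stimulus, rose almost without exception. Of 27 members, all tested, 26 were higher and 24 of those at least 2-fold, with a median log2 fold change of 2.47. KLF4 and NR4A2, among the 26, had 6 and 9 counts over the control samples and 108 and 51 with both drugs. Both could pass the filter on low counts only through treated samples, so their rise is no separate evidence. The AP-1 gene JUN (chromosome 1, 58776845 to 58784048) was at 3.59, 4.05 and 4.18 CPM in the control samples and 178, 225 and 159.9 CPM with both drugs (log2 fold change 5.57, SE 0.157, adjusted p = 1.09e-11). ATF3 (chromosome 1, 212565334 to 212620777), a stress-induced member of the ATF and CREB family, was at 3.02, 2.88 and 2.57 CPM in the control samples and 125, 160.0 and 129 CPM with both drugs (log2 fold change 5.61, SE 0.153, adjusted p = 1.09e-11). FOS rose from 1.95 ± 0.211 to 36.2 ± 13.2 CPM (SD, n = 3; log2 fold change 4.21, adjusted p = 7.23e-09), with replicate 2 highest and replicate 3 lowest. FOSL1, the AP-1 partner FRA1, rose from 30.4 to 344 CPM, FOSB rose from 9.31 to 71.1 CPM and the zinc finger gene EGR1 rose from 23.4 to 144 CPM. MYC, the 1 member not called, was at 196, 201 and 207 CPM in the control samples and 194, 194 and 179.9 CPM with both drugs (log2 fold change -0.09, adjusted p = 0.467). Its groups did not overlap but lay close. The genes of this list are short, with a median span of 5.82 kb against 24.7 kb over all genes tested. The part of gene span in this result was not tested.

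RefSeq promoter windows (GRCh38.p14, the 250 bases before the transcript start) were matched for 21 of these 27 genes, 26 windows in all. Windows of 4 genes are shown because their transcripts rose from under 25 CPM and because they carry, in capitals, 1 of 2 short letter strings bound by AP-1, ATF and CREB proteins in other settings. TGACG, or CGTCA on the opposite strand, is the core of the cyclic AMP response element, and TGACATCA is the variant element known from the JUN promoter. The letters are printed 5′ to 3′ on the gene's own strand.
JUN promoter, chr1:58784048-58784297 (- strand): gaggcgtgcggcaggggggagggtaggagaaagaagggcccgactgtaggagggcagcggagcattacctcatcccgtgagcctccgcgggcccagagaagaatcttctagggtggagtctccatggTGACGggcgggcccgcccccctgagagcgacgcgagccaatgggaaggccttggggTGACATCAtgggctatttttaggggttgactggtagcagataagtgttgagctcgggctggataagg
ATF3 promoter, chr1:212565157-212565406 (+ strand): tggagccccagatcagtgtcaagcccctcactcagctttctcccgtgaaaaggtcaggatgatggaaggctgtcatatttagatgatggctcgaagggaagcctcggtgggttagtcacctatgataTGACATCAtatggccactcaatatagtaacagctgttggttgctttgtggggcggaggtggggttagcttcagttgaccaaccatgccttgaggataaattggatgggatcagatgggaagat
FOS promoter, chr14:75278578-75278827 (+ strand): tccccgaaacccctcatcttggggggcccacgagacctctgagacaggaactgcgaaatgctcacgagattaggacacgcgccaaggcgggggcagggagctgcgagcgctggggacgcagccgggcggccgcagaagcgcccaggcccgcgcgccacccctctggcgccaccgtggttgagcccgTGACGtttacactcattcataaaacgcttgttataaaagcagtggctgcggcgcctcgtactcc
EGR1 promoter, chr5:138465229-138465478 (+ strand): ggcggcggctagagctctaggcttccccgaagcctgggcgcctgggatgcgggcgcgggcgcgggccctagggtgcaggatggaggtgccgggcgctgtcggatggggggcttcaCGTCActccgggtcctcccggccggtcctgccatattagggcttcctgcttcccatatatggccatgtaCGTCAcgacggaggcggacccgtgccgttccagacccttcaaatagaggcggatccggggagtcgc

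JUN carries both strings, and ATF3 carries TGACATCA in the window of its upstream start and neither string in the window of its second start. FOS has TGACG once, and EGR1 has it in 2 places on the opposite strand. Searched on both strands, TGACG was in 14 of the 26 windows (53.8%) and in 21.2% of all 35116 RefSeq windows of this length. TGACATCA was in 3 of the 26, those of JUN, ATF3 and KLF6, and in 2.37% of all. A match of one string cannot be a match of the other. They were picked after their matches were known, and the windows of the list are richer in G and C (median 69.6%) than all windows (58.0%), so the counts are a description of these letters and not of binding.

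Inflammatory genes followed. Of 19 cytokine and chemokine genes 11 passed the filter on low counts. Of these 11, 10 rose and 1 fell, with a median log2 fold change of 1.74. IL6 and IL1B, among the 10, had 3 counts each over the control samples and 59 and 51 with both drugs. They could pass the filter only through treated samples, so their rise is no separate evidence. LIF, a cytokine of the interleukin-6 family, was at 1.04, 0.568 and 0.926 CPM in the control samples and 27.3, 25.1 and 30.3 CPM with both drugs (log2 fold change 5.02, SE 0.221, adjusted p = 3.62e-10). IL11, of the same family, rose from 6.62 ± 0.426 to 94.6 ± 8.58 CPM (SD, n = 3; log2 fold change 3.84, adjusted p = 6.98e-10). CXCL8, the neutrophil chemokine interleukin-8, rose from 161 ± 9.05 to 569 ± 119 CPM (SD, n = 3; log2 fold change 1.82, adjusted p = 3.76e-08). TGFB2 fell from 4.24 to 1.201 CPM (log2 fold change -1.82, adjusted p = 1.33e-04). TNF had 0 counts in the control samples and 13 over the samples given both drugs, too few to be tested. Among NF-kB subunits and inhibitors, 11 of 18 rose and 2 fell. The feedback inhibitor TNFAIP3 rose from 1.56 to 9.71 CPM (log2 fold change 2.63, adjusted p = 7.85e-09) and RELB, the subunit of the non-canonical pathway, rose from 4.75 to 23.8 CPM. NFKB1, which encodes p105 and p50, was at 34.6, 35.9 and 36.8 CPM in the control samples and 16.8, 10.7 and 14.04 CPM with both drugs (log2 fold change -1.37, SE 0.148, adjusted p = 1.88e-06).

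HLA class I genes, which display peptides to T cells, were also higher. Of 15 tested presentation genes 9 rose and 2 fell, with a median of 1.15. HLA-E was at 22.2, 20.8 and 21.2 CPM in the control samples and 109.7, 132 and 121 CPM with both drugs (log2 fold change 2.4983, SE 0.122, adjusted p = 8.49e-10). HLA-B rose from 4.25 to 19.3 CPM and the peptide transporter gene TAP1 from 14.5 to 81.00 CPM (adjusted p at most 1.39e-07). B2M, the light chain of these molecules, rose from 142 ± 7.67 to 316 ± 75.1 CPM (SD, n = 3; log2 fold change 1.16, adjusted p = 6.94e-06). Classical HLA genes are near-identical copies in part, so reads may be split among them. NLRC5, their transcriptional activator, fell from 0.934 to 0.351 CPM (log2 fold change -1.45, adjusted p = 0.0252), and lost the call when any 1 of 4 of the 6 samples was left out. Interferon-stimulated genes moved in both directions: 11 of 19 tested rose and 4 fell, and 7 of 26 members were not tested. Among the 11, ISG20, IFI27, IFI35 and IRF7 had 23, 18, 12 and 53 counts over the control samples. With both drugs they had 247, 56, 84 and 911. These genes could pass the filter only with the help of treated samples, so their rise is no separate evidence. IRF1 was at 2.75, 3.41 and 4.45 CPM in the control samples and 30.4, 35.2 and 37.8 CPM with both drugs (log2 fold change 3.28, SE 0.178, adjusted p = 2.14e-09). IRF7 rose from 0.567 to 10.8 CPM. IFIT1, an inhibitor of foreign RNA translation, was at 501, 521 and 479.6 CPM in the control samples and 274, 294 and 257 CPM with both drugs (log2 fold change -0.87, SE 0.107, adjusted p = 6.93e-06). OAS1 and RSAD2, hallmark targets of interferon, were at 0 counts in all 6 samples. The sum of the immune and red cell markers named at the start also moved with these genes: CD14 had 10 counts over the control samples and 146 with both drugs, while CD3E, FCGR3A and MS4A1 were at 0 throughout. Their part in these results was not tested.

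Subunits of RNA polymerase II were higher in 7 of 12 cases and lower in 1, with a median of 0.39. POLR2A (chromosome 17, 7484366 to 7514616), the catalytic subunit, was at 1332, 1472 and 1552 CPM in the control samples and 3529, 5587 and 3201 CPM with both drugs (log2 fold change 1.4995, SE 0.252, adjusted p = 1.22e-04), with replicate 2 highest. POLR2D rose from 107 to 192 CPM (log2 fold change 0.84, adjusted p = 1.45e-05). The 1 member called lower, POLR2B, moved from 255 to 222 CPM and lost its call when any 1 of 5 of the 6 samples was left out. With scaling by library size alone, 4 subunits were called higher. In Mediator, the complex that links activators to the polymerase, 12 of 30 subunits rose and 7 fell. These shares were 40% and 23.3%, against 34.1% and 34.4% of all genes. MED29 rose from 38.9 to 85.7 CPM, whereas MED27 was at 20.2, 19.8 and 21.3 CPM in the control samples and 2.24, 1.26 and 2.23 CPM with both drugs (log2 fold change -3.40, SE 0.205, adjusted p = 5.80e-09) and the kinase subunit CDK8 fell from 61.3 to 15.8 CPM (log2 fold change -1.95, adjusted p = 3.54e-08). Of 19 SR splicing factors and their kinases, 10 rose and 4 fell. CLK1, a kinase of SR proteins, rose from 28.98 ± 2.95 to 75.7 ± 17.6 CPM (SD, n = 3; log2 fold change 1.38, adjusted p = 5.92e-06). The larger kinase genes SRPK1 and SRPK2 fell from 209 to 89.9 CPM and from 67.3 to 8.31 CPM (adjusted p for SRPK2 = 2.88e-08). In the MYC, MAX and MXD network 7 of 12 rose and 1 fell. MXD4, a MAX partner that represses MYC targets, rose from 19.9 to 44.3 CPM (log2 fold change 1.15, adjusted p = 2.30e-05), as did its relative MXD3 (from 3.25 to 7.67 CPM), and MGA, the member that fell, went from 127 to 56.2 CPM (log2 fold change -1.18, adjusted p = 1.95e-06).

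The cell cycle genes did not fall together. G1 regulators rose: 11 of 14 were higher, among them the inhibitor CDKN2B, from 1.18 to 39.6 CPM (log2 fold change 5.06, adjusted p = 1.73e-09), the cyclin CCNE2, from 43.2 to 163 CPM, and the kinase CDK2, from 79.9 to 240.2 CPM. CDK6 was the 1 member that fell, 74.8, 77.2 and 74.3 CPM in the control samples and 7.57, 4.21 and 4.12 CPM with both drugs (log2 fold change -3.83, SE 0.218, adjusted p = 3.43e-09). E2F7, a repressive E2F factor and known p53 target, rose from 46.99 ± 3.58 to 259.9 ± 18.8 CPM (SD, n = 3; log2 fold change 2.47, adjusted p = 1.82e-10), while RB1 fell from 63.6 to 23.4 CPM (log2 fold change -1.44, adjusted p = 5.28e-05) and E2F5 from 50.5 to 12.9 CPM (log2 fold change -1.96, adjusted p = 1.61e-08). Of 35 DNA replication genes 8 rose and 10 fell, shares below those of all genes, and the median was 0.03, a value whose sign changed with scaling by library size alone, with no filter on low counts and without both drugs replicate 3. PCNA, the sliding clamp, was at 164, 172 and 159.8 CPM in the control samples and 368, 390.2 and 384 CPM with both drugs (log2 fold change 1.20, SE 0.0826, adjusted p = 1.80e-08). The primase and polymerase alpha genes fell: PRIM2 was at 31.4, 31.02 and 28.5 CPM in the control samples and 4.45, 3.08 and 2.87 CPM with both drugs (log2 fold change -3.13, SE 0.162, adjusted p = 1.43e-09), and POLA1 fell from 159 ± 4.22 to 15.2 ± 4.09 CPM (SD, n = 3; log2 fold change -3.39, adjusted p = 2.03e-09). The helicase subunits MCM2, MCM4 and MCM7 had log2 fold changes of 0.19, 0.09 and 0.10 and were not called.

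Of 34 mitotic genes, 10 rose (6 with library size as the scaling) and 12 fell. These shares, 29.4% and 35.3%, were near the 34.1% and 34.4% of all genes. CDK1, the mitotic kinase, was at 151, 148 and 141 CPM in the control samples and 273, 275 and 234 CPM with both drugs (log2 fold change 0.83, SE 0.0872, adjusted p = 1.31e-06), and the checkpoint kinase BUB1 was at 177, 185 and 175 CPM in the control samples and 94.2, 95.9 and 90.5 CPM with both drugs (log2 fold change -0.94, SE 0.104, adjusted p = 2.38e-06). HMMR, a spindle protein gene, had the largest fall, from 104.8 to 31.4 CPM (log2 fold change -1.74, adjusted p = 3.96e-06). TOP2A and CDC20, usual markers of cycling cells, stood at log2 fold changes of 0.01 and 0.01, and MKI67 at 0.36 (adjusted p above 0.05 for all 3). Of 54 replication-dependent histone genes 38 could be tested, 13 rose and 8 fell. Their transcripts mostly lack a poly(A) tail, so these libraries record only a part of them. H2BC21, whose transcript can be polyadenylated, rose from 4.701 to 19.7 CPM (log2 fold change 2.06, adjusted p = 8.84e-08). The 8 that fell became 5 without control replicate 3 or without both drugs replicate 3 and 2 with a filter at 1 CPM, and H2AC20 fell from 1.38 to 0.194 CPM.

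DNA repair genes divided by gene. XPC and DDB2, the damage sensors of nucleotide excision repair that p53 also controls, rose: XPC was at 48.6, 50.1 and 51.6 CPM in the control samples and 183, 204 and 209.5 CPM with both drugs (log2 fold change 1.99, SE 0.101, adjusted p = 1.02e-09), and DDB2 rose from 15.96 to 75.1 CPM. Of the 22 members tested, 4 rose (2 with library size as the scaling) and 9 fell, among them MNAT1, a TFIIH kinase subunit, 19.3, 22.2 and 18.5 CPM in the control samples and 3.37, 2.53 and 2.903 CPM with both drugs (log2 fold change -2.76, SE 0.214, adjusted p = 6.66e-08), and ERCC8, which acts where RNA polymerase stalls, from 22.2 to 9.76 CPM (log2 fold change -1.19, adjusted p = 2.69e-06). In homologous recombination and the Fanconi anemia pathway 8 of 28 rose and 12 fell, and those called higher were 4 with library size as the scaling and 5 with no filter. RAD51C rose from 26.1 to 46.2 CPM (log2 fold change 0.83, adjusted p = 1.29e-05). BRCA1 fell from 117 ± 2.299 to 65.5 ± 4.96 CPM (SD, n = 3; log2 fold change -0.83, adjusted p = 2.05e-04), BRCA2 fell from 60.02 ± 2.16 to 31.9 ± 8.14 CPM (log2 fold change -0.91, adjusted p = 0.00225) and FANCD2 fell from 79.8 ± 2.27 to 31.3 ± 5.59 CPM (log2 fold change -1.35, adjusted p = 3.62e-07). RAD51B and FANCC, which span 910 and 328 kb, fell furthest, RAD51B being at 7.21, 6.42 and 7.05 CPM in the control samples and 0.869, 0.5901 and 0.447 CPM with both drugs (log2 fold change -3.44, SE 0.212, adjusted p = 7.12e-09). The median span of this list was 69.1 kb.

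Ribosomal protein genes were moderately higher. Of 79 cytosolic members 42 rose and none fell, with a median log2 fold change of 0.35, and 3 rose at least 2-fold. RPLP0 was at 2211, 2096 and 2092 CPM in the control samples and 2977, 2965 and 3132 CPM with both drugs (log2 fold change 0.50, SE 0.205, adjusted p = 0.0412) and EEF2, the elongation factor, was at 2949, 2961 and 3005 CPM in the control samples and 5479, 6109 and 5404 CPM with both drugs (log2 fold change 0.93, SE 0.113, adjusted p = 5.80e-06). Of the members past 2-fold, RPS10 and RPL36A rose from 3.07 to 9.81 CPM and from 4.05 to 12.3 CPM, respectively. They have near-identical copies elsewhere, so their values are uncertain. The size of this group's change depended on scaling: with library size alone 18 were called higher and 1 lower, and with TREAT 6 were called. Nucleolar ribosome assembly genes rose in 27 of 47 cases and fell in 5. NOP56, a snoRNP protein gene, was at 219.7, 225 and 227 CPM in the control samples and 506, 627 and 517 CPM with both drugs (log2 fold change 1.30, SE 0.0987, adjusted p = 5.15e-08). UTP20 and DDX10 fell, UTP20 from 221 to 52.3 CPM and DDX10 from 85.3 to 8.45 CPM (adjusted p = 8.95e-10 and 1.43e-09).

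Aminoacyl-tRNA synthetases, which charge tRNAs, went the other way: 14 of 20 fell and 2 rose, with a median of -0.57. LARS1 was at 229, 232 and 228 CPM in the control samples and 66.6, 57.8 and 62.1 CPM with both drugs (log2 fold change -1.89, SE 0.1205, adjusted p = 1.01e-08). EPRS1 fell from 456 ± 15.5 to 157 ± 18.1 CPM (SD, n = 3; log2 fold change -1.54, adjusted p = 2.65e-08), whereas SARS1 rose from 167 to 306 CPM and HARS1 from 82.3 to 161 CPM. Of 76 mitochondrial ribosomal proteins 19 rose and 27 fell, the former becoming 10 with library size as the scaling. These shares were 25% and 35.5%, against 34.1% and 34.4% of all genes. MRPL49 rose from 67.9 to 187 CPM (log2 fold change 1.47, adjusted p = 6.85e-07) and MRPL48 fell from 32.9 to 4.87 CPM (log2 fold change -2.75, adjusted p = 1.72e-09).

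Transcripts of the mitochondrial genome took a larger part of the RNA. The 37 mitochondrial genes held 6.26%, 7.17% and 6.97% of counts in the control samples and 14.6%, 24.9% and 13.1% with both drugs, a difference of 10.7 percentage points. The groups did not overlap, and the exact permutation p was 0.1, the smallest that 3 against 3 samples allow (two-sided). Without both drugs replicate 2 the difference was 7.02 points. Of the 13 encoded proteins 11 were called higher, with a median of 1.39, and 5 were called without both drugs replicate 2. The calls were 6 or 7 without any 1 control sample and 7 with DESeq2. MT-CO1, a catalytic subunit of cytochrome c oxidase, was at 9429, 11072 and 10631 CPM in the control samples and 28182, 54955 and 24549 CPM with both drugs (log2 fold change 1.79, SE 0.3598, adjusted p = 5.50e-04). MT-ND6, the 1 protein gene of the light strand, was at 157, 168 and 176 CPM in the control samples and 479, 862 and 468 CPM with both drugs (log2 fold change 1.85, SE 0.253, adjusted p = 1.75e-05). MT-CYB and MT-ND5 were not called (adjusted p = 0.0604 and 0.0513).

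Nuclear genes of the same respiratory chain moved in both directions. Of 75 tested 12 rose and 25 fell, with a median of -0.13. NDUFS4, a complex I subunit gene, was at 20.8, 20.9 and 20.1 CPM in the control samples and 4.56, 3.16 and 3.89 CPM with both drugs (log2 fold change -2.41, SE 0.145, adjusted p = 5.43e-09), and SDHA, the flavoprotein of complex II, rose from 16.03 to 36.7 CPM (log2 fold change 1.20, adjusted p = 1.06e-06). Without teriflunomide replicate 3, and with the 6 compared samples alone, 20 were called higher. That replicate enters the comparison only through the filter, the scaling and the shared spread. DNM1L (chromosome 12, 32679200 to 32745650), which encodes DRP1, was at 231, 244 and 236 CPM in the control samples and 223, 220.0 and 193 CPM with both drugs, with a log2 fold change of -0.16 (SE 0.131, adjusted p = 0.285). It was called lower with library size as the scaling (-0.34, adjusted p = 0.0165) and without teriflunomide replicate 3 (adjusted p = 0.0421). Of the 10 fission genes, MIEF1, a DRP1 receptor gene, rose from 135 to 201 CPM (log2 fold change 0.58, adjusted p = 0.00117; not called with library size alone), and MTFR1 and MTFR2 fell. Of the 6 fusion genes 2 rose and 3 fell: OPA1, the inner membrane GTPase, fell from 172 ± 4.35 to 54.2 ± 8.61 CPM (SD, n = 3; log2 fold change -1.66, adjusted p = 1.28e-07), its protease gene OMA1 fell from 17.04 to 3.48 CPM and MFN1 fell from 48.6 to 27.6 CPM (log2 fold change -0.82, adjusted p = 1.89e-05). MFN2 rose from 137 to 199 CPM and PLD6 from 13.2 to 41.96 CPM. PLD6 overlaps MPRIP, and MTFR1 overlaps PDE7A.

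DHODH (chromosome 16, 72008588 to 72027664), the target of teriflunomide, was at 18.3, 17.8 and 19.2 CPM in the control samples and 16.5, 20.5 and 19.7 CPM with both drugs (log2 fold change 0.04, SE 0.117, adjusted p = 0.801), and the groups overlapped. Of 14 tested genes of pyrimidine synthesis and salvage, 6 rose and 3 fell. UMPS, which makes UMP in the step after DHODH, was at 54.96, 54.2 and 52.97 CPM in the control samples and 93.1, 92.9 and 90.5 CPM with both drugs (log2 fold change 0.77, adjusted p = 6.10e-05). The salvage kinase UCK1 rose from 29.98 to 87.5 CPM (log2 fold change 1.54, adjusted p = 6.75e-07; it overlaps POMT1), while its relative UCK2 fell from 149 to 77.8 CPM. CAD, the first enzyme of the pathway, was at 198, 208 and 216 CPM in the control samples and 196, 175 and 224 CPM with both drugs (log2 fold change -0.06, adjusted p = 0.76). Of 14 deoxynucleotide supply genes, 6 rose (3 with library size as the scaling) and 3 fell: RRM2B, the p53-controlled ribonucleotide reductase subunit, was at 80.1, 81.1 and 75.2 CPM in the control samples and 348, 297 and 265 CPM with both drugs (log2 fold change 1.95, SE 0.119, adjusted p = 6.69e-09), RRM2 rose from 233 ± 11.5 to 639 ± 39.6 CPM (SD, n = 3; log2 fold change 1.46, adjusted p = 7.77e-09) and DUT fell from 56.8 to 29.8 CPM (log2 fold change -0.93, adjusted p = 3.35e-06). Purine genes fell in 6 of 12 cases, GMPS being at 299.6, 314 and 298 CPM in the control samples and 145, 123 and 138 CPM with both drugs (log2 fold change -1.17, adjusted p = 9.11e-08), and rose in 3, with IMPDH2 at 302, 303 and 303 CPM in the control samples and 575, 614 and 640.2 CPM with both drugs (log2 fold change 1.01, adjusted p = 2.08e-06).

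Genes of central carbon metabolism differed by list. Of 21 citric acid cycle genes 13 fell and 6 rose, with a median of -0.40. SUCLG2, the GTP-forming subunit of succinyl-CoA ligase, was at 62.1, 69.00 and 65.2 CPM in the control samples and 3.73, 4.55 and 2.46 CPM with both drugs (log2 fold change -4.20, SE 0.206, adjusted p = 8.63e-10). IDH1, the cytosolic isocitrate dehydrogenase, fell from 174 ± 5.87 to 57.7 ± 1.47 CPM (SD, n = 3; log2 fold change -1.60, adjusted p = 1.58e-09). In glycolysis 8 of 21 fell, close to the share among all genes, and 3 rose, or 6 without teriflunomide replicate 3. LDHA, lactate dehydrogenase, was at 1499.9, 1534 and 1412 CPM in the control samples and 706, 794 and 665 CPM with both drugs (log2 fold change -1.04, SE 0.0916, adjusted p = 2.26e-07), and HK2, hexokinase 2, fell from 193 ± 3.01 to 80.1 ± 2.67 CPM (SD, n = 3; log2 fold change -1.27, adjusted p = 1.26e-08). SLC16A1, the lactate transporter MCT1, rose from 317 to 494 CPM (log2 fold change 0.64, adjusted p = 9.28e-05). GAPDH was at 2215, 2189 and 2249 CPM in the control samples and 1737, 1719 and 1875 CPM with both drugs (adjusted p = 0.122), and this call changed with the samples in the fit (adjusted p = 0.00445 with the 6 samples alone). Serine and one-carbon genes fell in 7 of 10 cases and rose in 1, with a median of -1.38. PSAT1 was at 263, 264 and 256 CPM in the control samples and 101, 75.4 and 86.02 CPM with both drugs (log2 fold change -1.58, SE 0.122, adjusted p = 6.51e-08), PHGDH fell from 209 ± 2.82 to 71.04 ± 10.6 CPM (SD, n = 3; log2 fold change -1.55, adjusted p = 3.28e-06) and MTHFD1L fell from 94.98 to 16.05 CPM, whereas the mitochondrial enzyme gene MTHFD2 rose from 188 to 331 CPM (log2 fold change 0.82, adjusted p = 1.38e-06). Of 25 cholesterol genes 14 fell and 1 rose. FDFT1, squalene synthase, fell from 263 ± 4.197 to 164 ± 16.2 CPM (SD, n = 3; log2 fold change -0.69, adjusted p = 9.50e-06). TM7SF2, the member that rose, overlaps VPS51.

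Stress programmes gave mixed lists. In the integrated stress response 9 of 22 rose and 4 fell, with ATF3 and SESN2 at the top, both also p53 or early response genes. PPP1R15A, which encodes GADD34, rose from 12.4 ± 0.719 to 103 ± 32.7 CPM (SD, n = 3; log2 fold change 3.05, adjusted p = 6.17e-09), and DDIT3, which encodes CHOP, rose from 6.01 to 20.5 CPM (log2 fold change 1.77, adjusted p = 5.42e-08). ATF4, the central factor, rose from 210.2 to 263 CPM (log2 fold change 0.32, adjusted p = 0.0308). TRIB3 and SLC7A11 fell from 28.6 to 8.47 CPM and from 3.75 to 0.405 CPM (adjusted p = 7.79e-05 and 9.49e-07). Of 20 endoplasmic reticulum genes 7 rose (35%) and 8 fell (40%), near the shares of all genes. The co-chaperone gene DNAJB9 rose from 9.51 to 36.96 CPM. ATF6, a membrane-bound sensor, was at 68.4, 71.6 and 68.5 CPM in the control samples and 8.797, 6.83 and 6.605 CPM with both drugs (log2 fold change -3.23, SE 0.172, adjusted p = 1.78e-09). The 7 became 4 without both drugs replicate 2 or with no filter, and 2 with library size as the scaling. Heat shock genes rose in 11 of 20 cases and fell in 2, with BAG3 at 53.4, 56.6 and 55.5 CPM in the control samples and 115, 133 and 118 CPM with both drugs (log2 fold change 1.15, adjusted p = 3.88e-07) and HSPA14 falling from 32.3 to 25.9 CPM (log2 fold change -0.32, adjusted p = 0.0133). Among 21 NRF2 genes 10 rose (5 with library size as the scaling) and 6 fell. OSGIN1, a growth inhibitor gene that overlaps MLYCD, rose from 0.553 to 4.37 CPM, and ME1, the cytosolic malic enzyme, fell from 22.1 ± 1.13 to 1.38 ± 0.517 CPM (SD, n = 3; log2 fold change -4.0017, adjusted p = 5.25e-09). Autophagy genes rose in 14 of 31 cases and fell in 11. The cargo receptor SQSTM1 rose from 63.2 to 202 CPM and GABARAPL1 from 13.1 to 36.9 CPM (log2 fold change 1.49, adjusted p = 6.15e-08), and ATG7 was at 11.8, 9.96 and 11.3 CPM in the control samples and 1.27, 0.632 and 0.957 CPM with both drugs (log2 fold change -3.51, SE 0.241, adjusted p = 2.03e-08; it overlaps VGLL4). Of 31 proteasome subunits 12 rose and 6 fell, the ATPase PSMC4 rising from 105.2 to 241 CPM and the scaffold PSMD1 falling from 247 to 88.5 CPM. Of 18 hypoxia genes 5 rose (27.8%) and 7 fell (38.9%), near the shares of all genes. The peptide hormone gene ADM rose from 2.05 to 11.4 CPM, and PDK1, which restrains pyruvate dehydrogenase, fell from 68.9 to 19.9 CPM.

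Genes of identity and surface changed unevenly. YAP1 was at 243, 259 and 236 CPM in the control samples and 128, 86.5 and 77.6 CPM with both drugs (log2 fold change -1.34, SE 0.159, adjusted p = 4.76e-06), and its partner TEAD1 fell from 82.7 ± 5.03 to 12.4 ± 3.85 CPM (SD, n = 3; log2 fold change -2.74, adjusted p = 4.96e-08). The other TEAD genes diverged: TEAD4 fell (log2 fold change -1.14), and TEAD2 and TEAD3 rose (0.32 and 1.87). CCN1 and CCN2, targets of YAP1 and TEAD proteins, rose, CCN1 being at 6.67, 7.82 and 7.71 CPM in the control samples and 68.3, 85.2 and 60.02 CPM with both drugs (log2 fold change 3.26, SE 0.142, adjusted p = 3.27e-10) and CCN2 rising from 1.79 to 36.8 CPM. The Hippo kinase gene STK3, which encodes MST2, fell from 18.7 to 1.43 CPM (log2 fold change -3.69, adjusted p = 3.91e-09). Over the whole list 8 of 21 rose and 10 fell. Of 16 Notch genes 10 rose and 1 fell. DLL4, a ligand, rose from 0.8403 to 8.18 CPM (log2 fold change 3.28, adjusted p = 7.33e-09), HES6 rose from 3.13 to 20.6 CPM, and the receptor NOTCH2 was at 342, 368 and 389.8 CPM in the control samples and 107, 73.8 and 85.8 CPM with both drugs (log2 fold change -2.04, SE 0.123, adjusted p = 5.92e-09). Of 12 tested genes of epithelial-mesenchymal transition 8 fell and 3 rose. The list pools epithelial and mesenchymal genes, so these counts give no direction of transition. The epithelial genes KRT8 and CLDN4 were among those that rose, and CLDN7, also epithelial, fell. CDH2, N-cadherin, was at 40.9, 44.3 and 45.8 CPM in the control samples and 8.25, 5.02 and 7.21 CPM with both drugs (log2 fold change -2.67, SE 0.205, adjusted p = 6.07e-08), and ZEB1 fell from 53.5 to 9.69 CPM (log2 fold change -2.46, adjusted p = 9.73e-07), while SNAI1 rose from 1.12 ± 0.331 to 14.99 ± 4.66 CPM (SD, n = 3; log2 fold change 3.75, adjusted p = 2.38e-08). Integrins fell in 9 of 17 cases and rose in 4: ITGA4 fell from 26.6 to 6.07 CPM and ITGA3 rose from 8.44 to 25.1 CPM (adjusted p at most 3.50e-06). Of the tubulins 11 of 15 rose, TUBA1A from 80.2 to 185 CPM (log2 fold change 1.20, adjusted p = 6.09e-08; it overlaps TUBA1C), and TUBB and TUBD1 fell. The efflux pump gene ABCC4 was at 86.1, 96.8 and 89.9 CPM in the control samples and 11.1, 11.04 and 9.32 CPM with both drugs (log2 fold change -3.12, SE 0.126, adjusted p = 1.71e-10) and ABCC1 fell from 154 ± 5.33 to 26.8 ± 8.03 CPM (SD, n = 3; log2 fold change -2.52, adjusted p = 5.75e-08). ABCB1, which encodes P-glycoprotein, rose from 0.5698 to 1.09 CPM, a call that was lost in 5 of the 6 fits that left out 1 of the compared samples. COL1A1, which carries most of the fibroblast list's sum with COL1A2, was at 267, 259 and 272 CPM in the control samples and 104, 93.6 and 110.0 CPM with both drugs (log2 fold change -1.38, SE 0.0964, adjusted p = 2.19e-08), with DCN and LUM at 0. The fall of that list's sum moved with the transition and integrin genes, and its part in those results was not tested. Of the neuroendocrine list, 8 of 17 members could be tested: SYP rose from 16.8 to 34.1 CPM (log2 fold change 1.02, adjusted p = 1.13e-06), and SNAP25 fell from 2.696 to 0.349 CPM.

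**Figure D3:**
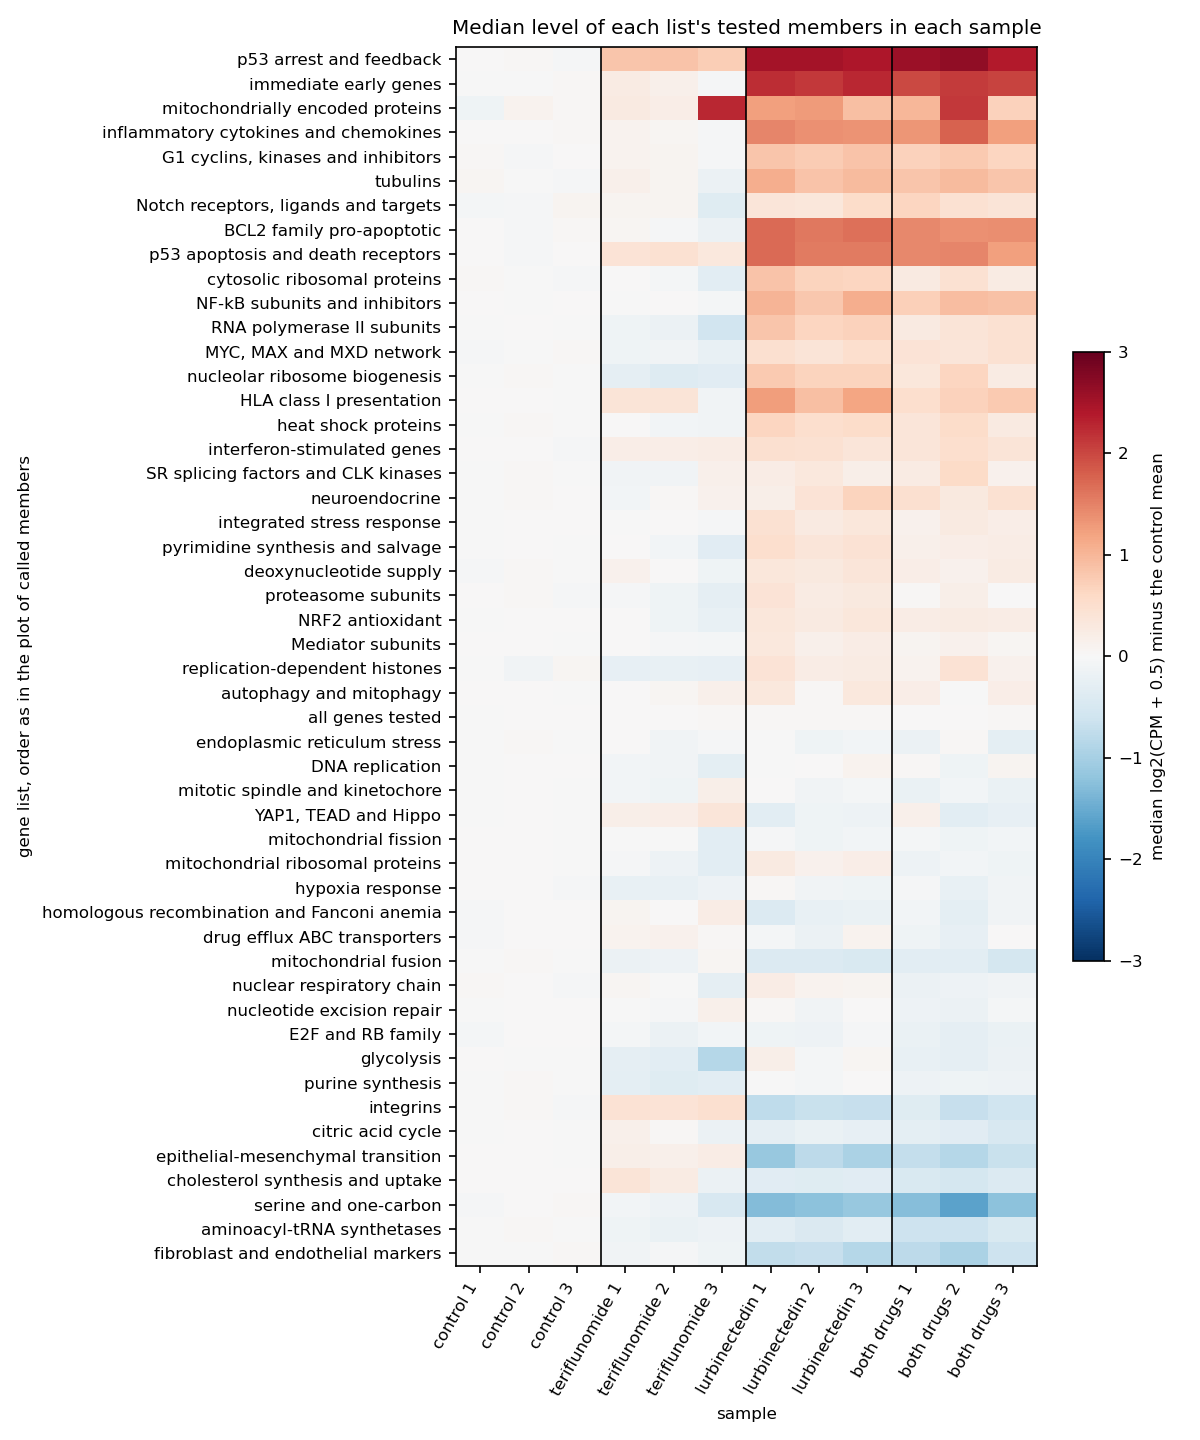
Each cell is the median, over a list's tested members, of log2(CPM + 0.5) in 1 of the 12 samples minus the control mean (red higher, blue lower, lists in rows in the order of called members). The p53 arrest row reads 2.58, 2.66 and 2.39 in the samples given both drugs, and the row of mitochondrially encoded proteins is highest, at 2.12, in replicate 2.

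The 500 nuclear genes of highest level over the 6 samples, each above 320 TPM, leaned higher: 218 (43.6%) rose, 86 (17.2%) fell and 196 were not called. With scaling by library size alone 136 were called higher. The set contains 71 ribosomal proteins. Without these, 179 of 429 rose and 86 fell, with a median log2 fold change of 0.17. NTS (chromosome 12, 85874295 to 85882992), the first in rank in both groups, was at 33206, 33581 and 29881 TPM in the control samples and 27495, 28461 and 20668 TPM with both drugs, with a log2 fold change in CPM of -0.19 (adjusted p = 0.268) that was called lower without both drugs replicate 2 (-0.34, adjusted p = 0.0476). ACTB, cytoplasmic actin, was at 4035, 4119.9 and 4045 TPM in the control samples and 2052, 1857 and 1789.7 TPM with both drugs (log2 fold change -0.96, adjusted p = 2.04e-06) and went from rank 6 to rank 47. TMSB4X, an actin-binding peptide gene, was at 4921, 4811 and 4726 TPM in the control samples and 2495, 2061 and 2529.9 TPM with both drugs (log2 fold change -0.89). EEF2 moved from rank 8 to rank 3. HSP90AB1, the constitutive HSP90, and the ribosomal protein genes RPS12 and RPS27 were among the first 5 of at least 1 group, with log2 fold changes of 0.36, 0.13 and 0.57 and, for HSP90AB1, an adjusted p of 0.00405 that became 0.098 with library size as the scaling. MTATP6P1, a nuclear copy of a mitochondrial gene, reached rank 2 with both drugs, but its reads cannot be told from those of the mitochondrial genome.

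Among the 500, the larger rises were those of GADD45A, CDKN1A, BTG2, FOSL1, SESN2, MDM2, TAF9 and MALAT1, 4.98 to 2.17 on the log2 scale. MALAT1, a nuclear long non-coding RNA, rose from 284 ± 13.7 to 1276 ± 596 CPM (SD, n = 3; log2 fold change 2.17, adjusted p = 6.99e-06), with replicate 2 the highest. TAF9 overlaps AK6 and RAD17. The larger falls were those of PLA2G4A, PRKDC, MME, NUCKS1, PSAT1, LIPA, TSPAN13 and ZPLD1, -2.47 to -1.20. PLA2G4A (chromosome 1, 186828949 to 186988981), which encodes the phospholipase that releases arachidonic acid, was at 1479, 1535 and 1450.5 CPM in the control samples and 319, 225 and 263 CPM with both drugs (log2 fold change -2.47, SE 0.1198, adjusted p = 8.19e-10). PRKDC, the catalytic subunit of the DNA-dependent protein kinase, fell from 2627 ± 139 to 666 ± 142 CPM (SD, n = 3; log2 fold change -1.98, adjusted p = 2.01e-08), and MME, the peptidase neprilysin, fell from 1391 ± 49.2 to 411 ± 64.8 CPM (log2 fold change -1.76, adjusted p = 3.41e-08).

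The list of the 100 most abundant nuclear genes kept 79 names between the groups. Of the 21 that entered with both drugs 20 were called higher. Entering selects for a rise and leaving for a fall, so the calls of both sets only describe the turnover. MTND2P28, also a nuclear copy of a mitochondrial gene, was among those that entered. POLR2A went from rank 109 to rank 29, from 939.9 to 2383 TPM, BTG2 from 3394 to 91 and CXCL8 from 384 to 82. PCNA went from 189 to 72 and SF3B4, a splicing factor gene, from 266 to 71. Of the 21 that left 12 were called lower, among them PLA2G4A, from rank 18 to 325, LDHA, from 68 to 235, and SCD, the stearoyl-CoA desaturase, from 69 to 189. The 100 most abundant genes of each sample held 14.3%, 14.5% and 14.03% of nuclear counts in the control samples and 14.8%, 16.3% and 14.6% with both drugs, a difference of 0.959 points (exact permutation p = 0.1, the smallest possible). It was 0.412 points without both drugs replicate 2. The 500 most abundant gave 3.45 points, and the 20 most abundant gave 0.315 points, with groups that overlapped (exact permutation p = 0.5).

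**Figure D4:**
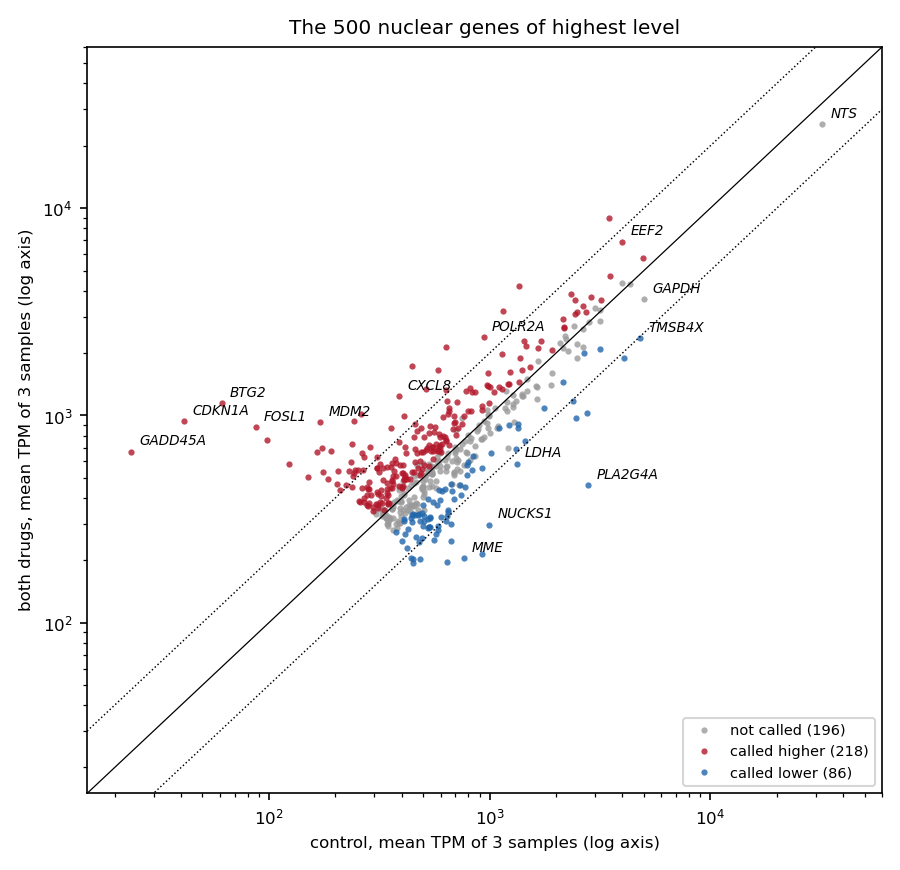
Mean TPM of the 500 nuclear genes of highest level in the control samples (horizontal, log axis) and with both drugs (vertical, log axis), each the mean of 3 samples, coloured by call. The solid line is equality and dotted lines are a 2-fold change. NTS lies near the line at the top, 49 genes called higher rose at least 2-fold and 14 called lower fell at least 2-fold.

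Change followed the genomic span of a gene, the distance from its first to its last exon. In 10 bins of 1664 to 1667 genes the median log2 fold change was 0.63 in the shortest (median span 0.873 kb) and stayed near 0.50 up to a median of 12.98 kb. It was 0.17 at 29.8 kb, -0.11 at 43.6 kb, -0.48 at 65.3 kb, -1.03 at 107 kb and -2.38 at 228 kb. In the longest bin 87.5% of genes were called lower and 4.50% higher, against 10.6% and 43.9% in the shortest. All 3 samples given both drugs had this order from the fourth bin on, with medians of -1.69, -2.04 and -1.95 in the longest bin. Genes with 1 exon had a median of 0.60, those with 2 to 5 had 0.39 and those with more than 5 had -0.21. For lists described above the median span was 23.2 kb for p53 arrest genes, 6.12 kb for cytokines, 5.33 kb for ribosomal proteins, 39.9 kb for aminoacyl-tRNA synthetases, 38.1 kb for serine and one-carbon genes and 81.7 kb for integrins. The part of span in those results was not tested.

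**Figure D5:**
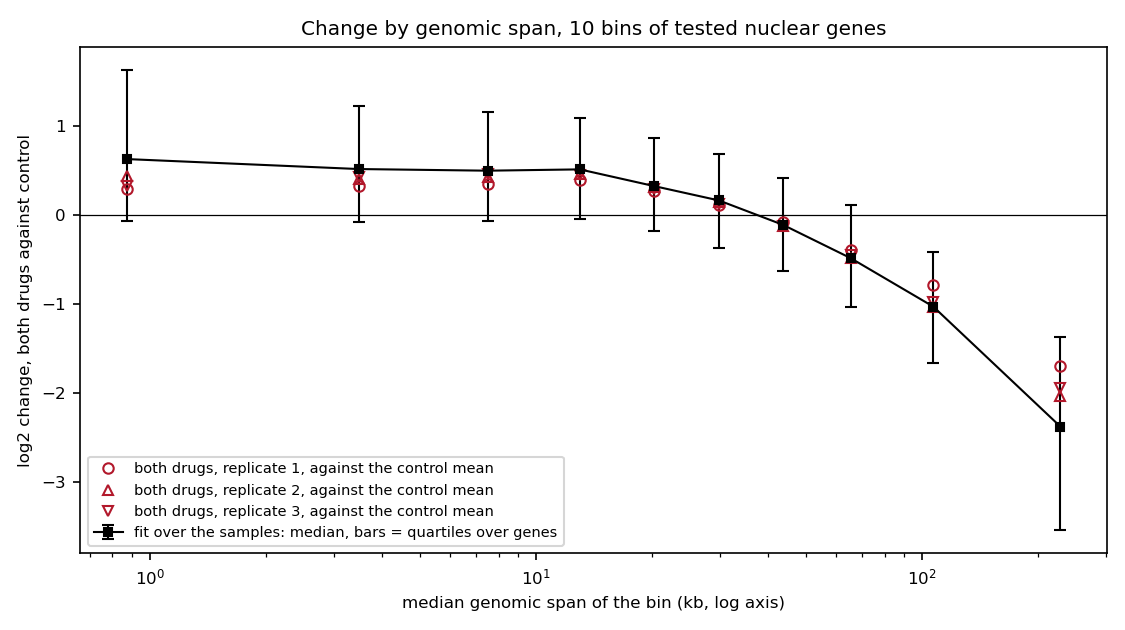
The median log2 change of tested nuclear genes (vertical) in 10 bins of genomic span (horizontal, log axis, at the median span of each bin). Black squares are medians of the fitted fold changes with quartiles over genes as bars. Red symbols are, for each sample given both drugs, medians of the log2 ratio of CPM + 0.5 to the mean control CPM + 0.5. The line is near 0.5 for short genes, crosses 0 between 29.8 and 43.6 kb and reaches -2.38 for the longest.

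Small RNA genes, recorded in these libraries only as far as they are captured with poly(A) RNA, were mostly higher. Of 37 small nucleolar RNA genes 27 rose and 2 fell, with a median of 1.47. Of 14 small nuclear RNA genes 9 rose and 1 fell. Their levels were low: the 37 summed to 21.6 to 23.7 CPM in the control samples and 39.8 to 54.6 CPM with both drugs. The 14 summed to 3.50 to 4.28 CPM and 7.63 to 19.3 CPM. Genes this low in control can pass the filter through treated samples alone, which favours calls of higher. Of 1256 long non-coding RNA genes 416 rose and 369 fell, close to the shares of all genes, and of 12705 protein-coding genes 4094 rose and 4930 fell. Many small nucleolar RNAs lie in introns of host genes, and their reads can come from those transcripts.

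Against the single drugs, the same fit called 0 of 16683 genes between both drugs and lurbinectedin alone (0.0%). The smallest adjusted p was 0.145, 2599 genes had an unadjusted p under 0.05, and DESeq2 called 584, so the absence of calls does not show that the 2 treatments act alike. Between both drugs and teriflunomide alone 11835 genes were called (70.9%; 11865 with DESeq2). For the lists, medians against the same control samples are given side by side. The p53 arrest list stood at 2.80 with lurbinectedin, 0.82 with teriflunomide and 2.84 with both. Immediate early genes stood at 2.33, 0.21 and 2.47, serine and one-carbon genes at -1.26, -0.22 and -1.38, and aminoacyl-tRNA synthetases at -0.36, -0.11 and -0.57. Cytosolic ribosomal proteins stood at 0.73, -0.11 and 0.35, and nucleolar ribosome assembly genes at 0.71, -0.32 and 0.38. These comparisons share their control samples. DHODH with both drugs differed by -0.40 on the log2 scale from lurbinectedin (adjusted p = 0.172) and by 0.58 from teriflunomide (adjusted p = 5.61e-04). CDKN1A differed by -0.11 from lurbinectedin (adjusted p = 0.795) and by 3.71 from teriflunomide (adjusted p = 2.74e-09).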

How the data were processed

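The deposited values are raw read counts per gene, 1 table per sample with 60649 genes, in the column layout of featureCounts, per the file headers. Per the submitters' processing notes, fastp 0.23.2, STAR 2.7.9 and featureCounts from Subread were used with build hg38. Strand use and the treatment of multi-mapping reads are not given in the sources used here, so counts of overlapping or near-identical genes may mix reads. Of the identifiers, 37318 occur with their version in GENCODE 29 (GRCh38), all at the coordinates given there. Symbols matched 60507 identifiers.

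Genes were kept with filterByExpr on the 4 groups, scaled by TMM and tested with edgeR 4.0.16 (quasi-likelihood, robust, 1 mean per group, all 12 samples) in R 4.3.3, with Benjamini-Hochberg adjustment over 16683 genes. The biological coefficient of variation was 14.5%. SE is the absolute log2 fold change divided by the square root of F. TPM used the deposited gene lengths over nuclear genes. The fitting code was tested on simulated counts. The 51 gene lists are from general knowledge, and lists, named genes and comparison were chosen with earlier results of these data known. Named by rule were the 6 largest rises and falls at 5 CPM or more, the 8 of each among 500 highly expressed genes, the 5 highest genes of each group, 1 member per list and direction with the smallest adjusted p, and, whatever their values, genes fixed by name, among them DHODH, DNM1L, POLR2A, MDM2, CDKN1A, NEUROD1, POU2F3 and YAP1. Some genes that the rule selects are not reported here. Other members named were chosen after their values were seen. Alternatives tried were other scalings, filters, samples in the fit, a replicate block, DESeq2 1.42.0, TREAT in edgeR, a stricter threshold and leaving out each sample.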

Additional observations from a re-analysis of the deposited data

How the results depend on the processing

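The count of genes called, 11418, was 10137 to 12314 over other scalings, filters, samples in the fit and DESeq2, 9580 at an adjusted p under 0.01 and 10559 to 10996 without any 1 of the 6 samples compared. Leaving out teriflunomide replicate 3, which is in neither compared group, gave 12786. Its removal acts through the filter, the scaling and the shared spread. That sample had 22.6% of its counts on the mitochondrial genome, against 8.42% and 8.43% in the other teriflunomide samples. Only the TREAT test against 1.5-fold moved it past 1.5 times: 7267 genes were called, 3358 of them higher (5687 before). Library size as the only scaling shifted the median of all genes from 0.04 to -0.13, gave 41.0% higher calls in place of 49.8% and turned the sign of the medians of the DNA replication, Mediator and proteasome lists. The share held by the most abundant genes, 0.959 points higher for 100 genes, was 3.45 points higher for 500 and 0.315 points higher for 20, where the groups overlapped (exact permutation p = 0.5). Replicates carry the same numbers in both groups. Deviations of same-numbered samples correlated at -0.03, 0.06 and 0.07, and those of differently numbered samples at -0.13 to 0.07. With 3 samples per group this shows no sign of pairing by number but cannot exclude it. A fit with the replicate number as a block called 11044 genes. No called gene named by the rule turned direction under these alternatives. Depth limits genes under about 10 counts in a group.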
